A study of Xenopus tropicalis with 26 samples.

Results

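H3K4me1 peaks of the vegetal mass were compared between Xenopus tropicalis early gastrulae injected with Vegt, Otx1 and Foxh1 morpholinos and untreated embryos of the same experiment. The members were all peaks in the peak list of either endoderm library, and a peak was counted as shared when it overlapped a peak of the other list by at least 1 bp. The morpholino list held 1192 peaks and the untreated list 3740. Merged, they gave 4481 regions of the 24314 regions found over all 9 H3K4me1 lists, of which 432 were in both endoderm lists, 3299 in the untreated list only and 750 in the morpholino list only.

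Histone H3 monomethylated at lysine 4 (H3K4me1) marks enhancers, including enhancers that are primed before the genes they control are transcribed. Vegt is a T-box factor whose maternal mRNA is localised to the vegetal pole of the egg, and it activates endoderm and mesoderm genes. Foxh1 is a forkhead factor that partners Smad2 and Smad3 in Nodal signalling, and Otx1 is a homeodomain factor of the orthodenticle family. Morpholinos are antisense oligonucleotides that block translation or splicing of their target RNA.

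The study mapped H3K4me1 by chromatin immunoprecipitation and sequencing in the germ layers of the early gastrula and asked how maternal and zygotic factors set its regional pattern. All groups used here were taken at Nieuwkoop and Faber stage 10.25, 7 hours after fertilisation, from 100 fixed and dissected embryos, with 3 µg of antibody. The knockdown experiment had 7 libraries, 1 for each condition. These were untreated animal cap (ectoderm), marginal zone (mesoderm) and vegetal mass (endoderm), the same layers after injection of 5 pg of alpha-amanitin, which blocks RNA polymerase II, and vegetal mass after injection of the 3 morpholinos together. A separate experiment gave 1 list each for untreated mesoderm and ectoderm, each from 2 replicate samples, called here the replicated lists. Each of these lists stands for its 2 samples together, so a peak in it was not shown to recur in both. The labels give no morpholino dose and no efficiency of the knockdown, the embryos were not sorted by cell type, and no control-morpholino or mock-injected endoderm was analysed here. The effect of injection and the effect of the 3 factors therefore cannot be told apart. With 1 library for each condition, a difference between the libraries themselves, such as in the yield of the immunoprecipitation, cannot be told apart from either. The lists hold positions and peak scores without genes, and no genome of their build was used, so neither the endoderm identity of the tissue nor the loss of the 3 factors could be checked and the regions are given by coordinates alone.

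With 1 library for each condition there is no replicate check of any difference below and no test was made. Shares are given with exact Clopper-Pearson 95% intervals, which cover counting error only. In dissected tissue, a mark lost from every cell and a mark carried by fewer of the cells cannot be told apart. A peak missing from a list is a peak that did not pass the authors' calling, not a region shown to lack the mark.

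Most untreated endoderm peaks were not in the morpholino list. Of the 3740 untreated peaks, 441 overlapped a morpholino peak, a share of 11.8% (95% interval 10.8 to 12.9%), and 88.2% did not. Of the 1192 morpholino peaks, 442 overlapped an untreated peak, which is 37.1% (34.3 to 39.9%), and 62.9% did not. The peaks covered 410640 bp after morpholinos and 1426075 bp in untreated endoderm, and their median widths were 299 and 325.5 bp. The morpholino list was the shortest of the 9, and even so it held more peaks outside the untreated endoderm list than inside it.

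At the margin of the 1 bp rule, the shared pair with the smallest overlap shared 1 bp on chromosome 5, between an untreated peak at 124542078 to 124542675 of 7.31-fold enrichment and a morpholino peak of 6.35-fold. The unshared pair with the smallest gap lay end to end on chromosome 3, where a morpholino peak at 22245219 to 22245448 (5.76-fold) was followed directly by an untreated peak at 22245449 to 22245685 (5.49-fold). A base or less separated the members on either side of the rule. The untreated peak of the unshared pair was weak for its list, whose median fold was 7.28.

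The short morpholino list did not come with a low background. The deposited fold enrichment and −log10 p of each peak together were reproduced by a whole number of reads over the summit (the pileup) and an expected background, in 100% of peaks of both lists to within 0.001 of the deposited −log10 p. The lowest background in a list, which in this scoring rises with the number of reads and with the fragment length, was 2.31 reads in the morpholino library and 1.59 in untreated endoderm, a ratio of 1.45. Over the 7 libraries of the experiment it ran from 1.59 in untreated endoderm to 2.62 in untreated mesoderm, whose list was the longest of the 7 with 8812 peaks. No source used here states the fragment lengths, so reads and fragment length cannot be told apart in this value. The weakest listed peak had a −log10 p of 9.13 after morpholinos and 9.22 in untreated endoderm, so both lists ended at nearly the same score.

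**Figure D1:**
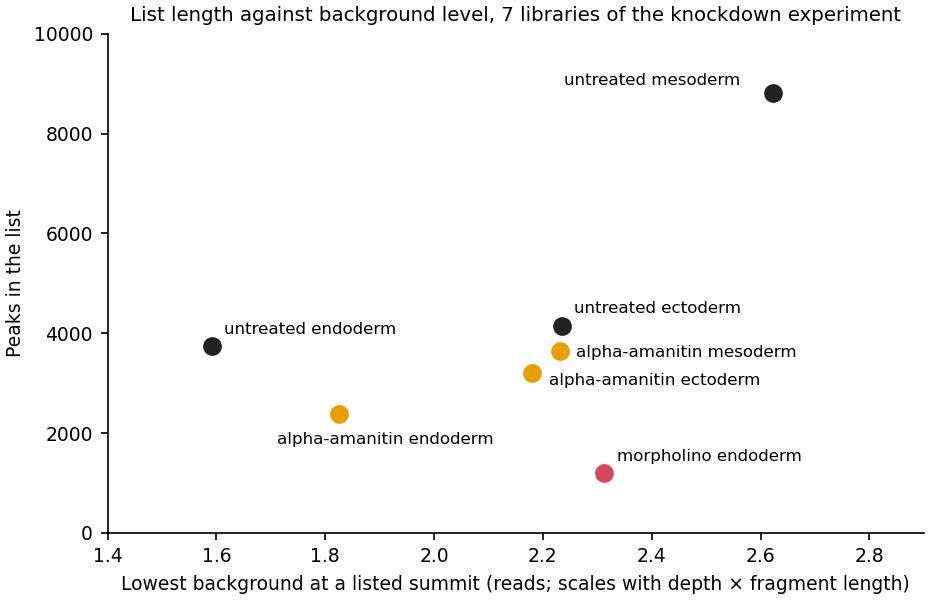
Number of peaks in each list (vertical axis) against the lowest background at a listed summit in reads (horizontal axis) for the 7 libraries of the knockdown experiment, 1 point for each library. The morpholino endoderm library has the fewest peaks, 1192, at a background of 2.31, and the untreated endoderm library has 3740 peaks at the lowest background, 1.59.

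What a missing peak could still have carried was bounded from the same values. By this scoring, at the lowest background and a −log10 p of 9, a morpholino peak needed a pileup of 16 reads, or 5.13-fold enrichment. An untreated endoderm peak needed 14 reads, or 5.79-fold. The lowest pileup of any listed peak was higher, 18 reads after morpholinos and 15 in untreated endoderm. The calling may thus have asked for more, and a missing peak could then have kept more than the bound given here. With its own background multiplied by 1.45, and if the calling scored peaks in this way, a missing untreated peak could have kept a median of 57.8% of its fold (quartiles 51.2 and 65.5%) and still not been listed after morpholinos. This bound was 70.6% in the weakest of 5 equal bins of untreated peaks by −log10 q and 44.6% in the strongest. It was at least 50% for 2608 of the 3299 missing peaks, or 79.1%. Where the bound holds, the lists show a fold at or below it and not how far below. Scaled to the morpholino background with no other change, all 3299 missing peaks scored at least 9, with a median of 24.1, which follows from scaling upwards. This recovery of pileup and background was added after the data were seen.

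Untreated endoderm peaks that the untreated mesoderm or ectoderm list of the experiment also held were found after morpholinos more often than peaks in neither list, with the few peaks shared with ectoderm alone as the exception. Of the 838 untreated endoderm peaks that overlapped both the untreated mesoderm and the untreated ectoderm list of the experiment, 228 were in the morpholino list, or 27.2% (24.2 to 30.4%). Of the 972 that overlapped mesoderm and not ectoderm, 148 were found, or 15.2% (13.0 to 17.6%). Of the 1903 in neither list, 64 were found, or 3.36% (2.60 to 4.27%); 728 of these 1903 were in a replicated mesoderm or ectoderm list, so the class is not one of peaks marked in endoderm alone. The intervals of these 3 classes do not overlap each other, and all 3 can be set against the 11.8% found overall. Only 27 endoderm peaks overlapped ectoderm and not mesoderm, and 1 of them was found.

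The order of the classes was the same in each of the 5 bins of strength. Among the weakest bin of untreated peaks, 12.6% of those in all 3 layers were found, 8.95% of those shared with mesoderm and 3.55% of those in neither list. Among the strongest bin the shares were 46.1% (39.5 to 52.8%), 23.0% (17.5 to 29.2%) and 4.65% (2.57 to 7.68%). The share found was thus higher in stronger bins for the peaks that other layers carried, while in the peaks of neither list it lay between 2.28 and 4.65% in every bin. The intervals of the classes of all 3 layers and of mesoderm overlap in every bin but the strongest, and those of mesoderm and of neither list overlap in the weakest bin.

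**Figure D2:**
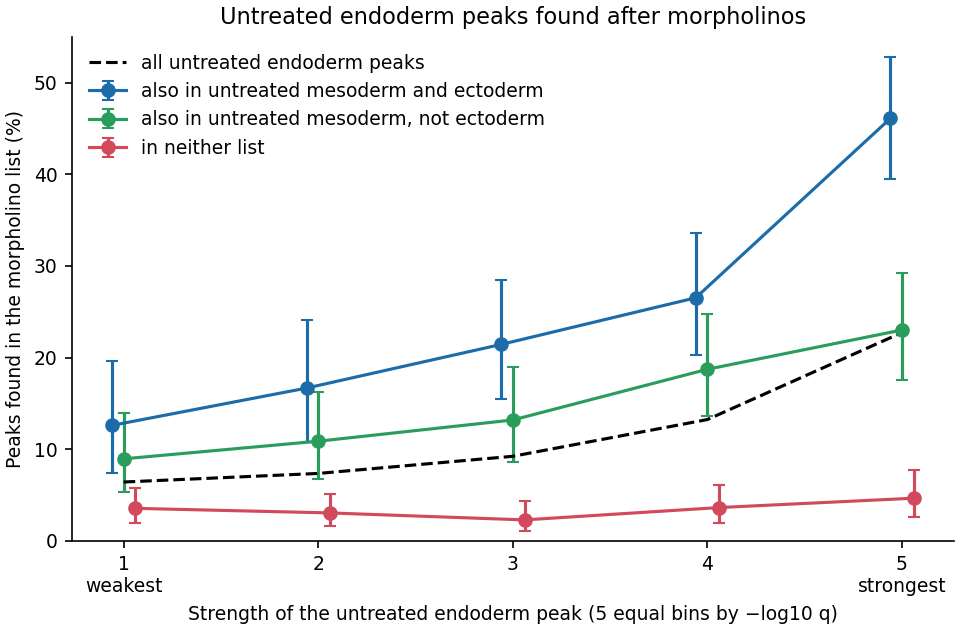
Share of untreated endoderm peaks found in the morpholino list (vertical axis, %) by strength of the untreated peak, in 5 equal bins by −log10 q (horizontal axis); lines join the classes by overlap with the other untreated germ layers, bars are 95% Clopper-Pearson intervals, and the dashed line is all untreated endoderm peaks. The line for all 3 layers runs from 12.6 to 46.1%, and the line for peaks in neither other layer's list stays between 2.28 and 4.65%.

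Whether a peak was seen in the separate, replicated experiment also split the untreated peaks as a whole. Of 2350 untreated endoderm peaks in a replicated mesoderm or ectoderm list, 384 were in the morpholino list, or 16.3% (14.9 to 17.9%), against 57 of 1390 in neither, or 4.10% (3.12 to 5.28%). Within the class in neither untreated list, 41 of 728 peaks that a replicated list held were found, or 5.63% (4.07 to 7.56%), and 23 of 1175 that none held, or 1.96% (1.24 to 2.92%). The other classes split less, with overlapping intervals. In all 3 layers the shares were 27.5% (24.4 to 30.8%) and 23.7% (13.6 to 36.6%), and with mesoderm 15.8% (13.3 to 18.5%) and 12.3% (7.59 to 18.6%). With ectoderm and not mesoderm, 0 of 25 and 1 of 2 were found. No replicated endoderm list was used, so peaks in no other list rest on 1 library, and 1127 untreated endoderm peaks (30.1%) were in none of the other 8 lists. The same share was 18.6% in the morpholino list, 15.7% in untreated mesoderm and 2.47 to 4.03% in the remaining lists of the knockdown experiment. In the longer replicated lists it was 36.9% for mesoderm and 32.4% for ectoderm.

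Alpha-amanitin endoderm was compared with the same untreated endoderm list, so its values stand beside those of the morpholinos and are no independent result. With its 2372 peaks cut to the 1192 strongest, the alpha-amanitin list held 709 of the 3740 untreated peaks, or 19.0% (17.7 to 20.3%), where the morpholino list held 11.8%. Of the untreated peaks in all 3 layers it held 53.5%, and of those shared with mesoderm 23.4%, both above the morpholino shares of 27.2 and 15.2%. Of the peaks in neither list it held 34 of 1903, or 1.79% (1.24 to 2.49%), below the morpholino share of 3.36%. The cut kept only the stronger alpha-amanitin peaks, while the morpholino list was used whole. Uncut, the alpha-amanitin list held 1101 of the 3740 untreated peaks. The classes were not looked up in the uncut list, so the lower share in this class may depend on the cut. Alpha-amanitin endoderm had a background of 1.83 reads, between the other 2 endoderm libraries.

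Found and missing untreated peaks differed little in median fold, and more in width and in −log10 q. The 441 found peaks had a median fold of 7.76 and the 3299 missing peaks 7.20. Their median widths were 386 and 320 bp, and their median −log10 q was 16.8 and 13.7. The share found was 6.95% in the narrowest of 5 bins of untreated peaks and 19.1% (16.4 to 22.1%) in the widest. By −log10 q it was 6.42% in the weakest of 5 bins and 22.7% (19.8 to 25.9%) in the strongest. Of the 50 untreated peaks with the highest −log10 q, 26 were in the morpholino list, or 52.0%, and of the strongest 400, 98 were, or 24.5%. Among the 1192 strongest peaks of alpha-amanitin endoderm, untreated mesoderm and untreated ectoderm, 35, 28 and 23 of the 50 were found. Of the 400, these lists held 170, 115 and 80. A higher share among the strongest untreated peaks was thus not particular to the morpholino list.

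The 8 strongest untreated peaks on the 10 chromosomes that were found lay mostly in regions that many lists marked. The peak with the highest score, at 116112302 to 116114513 on chromosome 6, was 19.0-fold enriched in untreated endoderm with a pileup of 137 reads, and 13.1-fold after morpholinos with 157 reads over a background that was 6.27 and 11.1 reads. It was in all 8 other lists, as was the peak just beside it at 116114685 to 116115144 (7.62-fold and 7.54-fold). On chromosome 1, the peak at 93547889 to 93548843 was 18.6-fold enriched untreated and 22.4-fold after morpholinos, the largest ratio of the 8 strongest shared peaks at 1.20.

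The smallest ratio among these 8, 0.352, was at 28440740 to 28441484 on chromosome 7. This peak was 15.8-fold enriched and 745 bp wide in untreated endoderm, and 5.56-fold and 211 bp after morpholinos, and besides these lists it was only in those of alpha-amanitin endoderm and untreated mesoderm. On chromosome 3, the peak at 133953711 to 133954129 had nearly the same fold in both, 15.8 and 16.3. On chromosome 6, the peak at 127555779 to 127556747 stood on a high background of 16.9 and 25.1 reads, and its fold was 7.60 untreated and 4.03 after morpholinos. The remaining 2, on chromosome 9 at 34257826 to 34258203 and on chromosome 7 at 61803626 to 61805051, had fold ratios of 0.842 and 0.805. All 8 were in the alpha-amanitin endoderm and untreated mesoderm lists, and 7 of the 8 in untreated ectoderm. Over all 441 found peaks the shares in these 3 lists were 68.0, 85.3 and 51.9%.

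The 8 strongest missing peaks on the 10 chromosomes had fold enrichments between 11.9 and 15.0 in untreated endoderm. The strongest, at 81172596 to 81172967 on chromosome 5, was 15.0-fold enriched with a pileup of 52 reads and was in no other list at all. Peaks on chromosome 7 at 18608862 to 18609375 and 32782309 to 32782739 (both 14.4-fold) were in the untreated mesoderm and alpha-amanitin endoderm lists. The peak on chromosome 4 at 44419904 to 44420500 (13.9-fold) was otherwise only in the replicated mesoderm list.

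The other 4 were on chromosome 1 at 57660326 to 57661318, chromosome 4 at 90089531 to 90089890, chromosome 6 at 113803229 to 113803539 and chromosome 2 at 129974758 to 129975769. Of all 8, untreated mesoderm held 5, untreated ectoderm 0, alpha-amanitin endoderm 4 and replicated mesoderm 6. Over all 3299 missing peaks the shares in these lists were 43.5, 19.3, 24.3 and 57.3%. If the calling scored peaks as assumed above and each background was 1.45 times the untreated one, the fold of the 8 peaks after morpholinos was at most 28.5 to 32.2% of the untreated fold. This bound is tighter than at the median missing peak, but it is too low if the calling asked for more or the background rose more. In the shared pairs the background ratio ran from 0.737 to 12.7 (quartiles 1.42 and 1.54).

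At regions listed in both libraries, enrichment was mostly lower after morpholinos. The 441 and 442 shared peaks formed 451 overlapping pairs, whose median fold was 7.78 in untreated endoderm (quartiles 6.72 and 9.19) and 5.88 after morpholinos (5.17 and 7.08). The ratio of morpholino to untreated fold had a median of 0.792 (quartiles 0.672 and 0.914) and was below 1 in 381 pairs, or 84.5%. It was 0.5 or less in 15 pairs and 1.5 or more in 5. The pileup in reads, which is not scaled to the library, had a median ratio of 1.06. The background under the pairs had a median ratio of 1.46, close to the ratio of 1.45 between the lowest backgrounds of the libraries. A similar number of reads over the summit therefore does not show that the signal was kept, and relative to background the pileup was mostly lower. Computed on pileup over background without the added 1 read of the deposited fold, the median ratio was 0.727.

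Within the knockdown experiment, no other list had so low a median fold at the untreated endoderm peaks it shared. Over the peaks each shared with untreated endoderm, the median ratio of fold was 0.940 for alpha-amanitin endoderm (1101 peaks), 0.951 for untreated mesoderm (1810) and 0.872 to 0.900 for the other 3 lists of the experiment, beside 0.793 for the 441 morpholino overlaps. Over the 290 untreated peaks that morpholino endoderm, alpha-amanitin endoderm and untreated mesoderm all held, the medians were 0.770, 0.957 and 0.998. Untreated mesoderm had a higher lowest background than the morpholino library, 2.62 against 2.31 reads. The replicated lists of the separate experiment had lower ratios, 0.469 in mesoderm (2260 peaks) and 0.471 in ectoderm (1399), at lowest backgrounds of 10.9 and 8.97 reads. All these ratios share the untreated endoderm values as their denominator. Where several peaks of a list overlapped an untreated peak, the highest fold was used. Whether the background level bears on the ratios was not tested.

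The ratio differed little between germ layer classes, with medians of 0.777 in the 233 pairs of all 3 layers, 0.790 in the 152 pairs shared with mesoderm and 0.828 in the 65 pairs in neither list. It differed more by strength, with medians of 0.948, 0.902, 0.818, 0.761 and 0.688 from the weakest to the strongest bin of untreated peaks; the bins were cut on the untreated score, which is not independent of the ratio. The pairs were also narrower after morpholinos in 292 of 451, or 64.7%, with a median width ratio of 0.888. Their summits lay a median of 77 bp apart (quartiles 32 and 164 bp), and within 100 bp in 270 pairs, or 59.9%. Across the 451 pairs, which share libraries and are not independent, Spearman's rho was 0.435 for fold and 0.291 for −log10 q. Each pair had to pass the calling in both libraries, so regions that fell below the calling after morpholinos are not in these medians. Missing peaks have no morpholino fold, so whether they fell more or less than the pairs is not known.

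**Figure D3:**
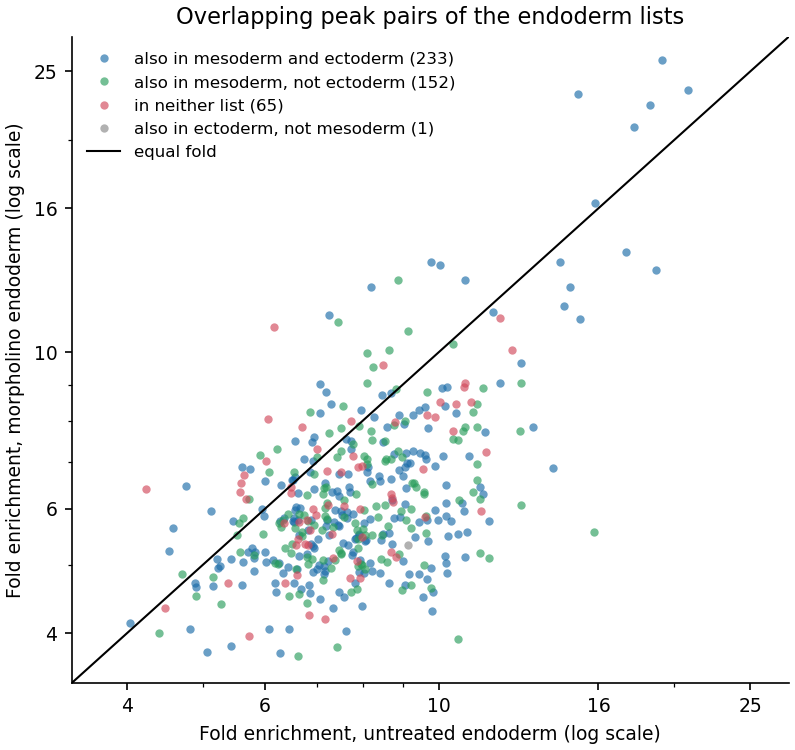
Deposited fold enrichment of the 451 overlapping peak pairs in untreated endoderm (horizontal axis, log scale) and morpholino endoderm (vertical axis, log scale), 1 point for each pair, coloured by overlap of the untreated peak with the other untreated germ layers. Most points, 381 of 451, lie below the line of equal fold, in every class with more than 1 pair.

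The 750 peaks seen after morpholinos and not in untreated endoderm were in the lists of other germ layers less often than the shared morpholino peaks. Untreated mesoderm held 329 of the 750, or 43.9% (40.3 to 47.5%), untreated ectoderm 21.6% and either of these 45.2%. Either of these held 85.5% of the 442 shared peaks. Of all 1192 morpholino peaks, 475 were in neither of these untreated lists, and 411 of the 475 were morpholino-only peaks. Replicated mesoderm held 54.3% and replicated ectoderm 46.7%. Alpha-amanitin endoderm, the other injected vegetal sample, held 144, or 19.2% (16.4 to 22.2%). The shared morpholino peaks were found at higher shares in every list, 85.3% in untreated mesoderm, 51.4% in untreated ectoderm and 68.6% in alpha-amanitin endoderm. The missing untreated peaks had nearly the same share in untreated mesoderm as the morpholino-only peaks, 43.5%, and 19.3% in untreated ectoderm.

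These shares depend on the length of the list that is searched. Against the 1192 strongest peaks of each list, between 8.0 and 11.6% of morpholino-only peaks were found in any list other than untreated endoderm, with 10.0% in untreated mesoderm and 8.93% in alpha-amanitin endoderm. For the shared peaks the same look-up gave 46.2% in untreated mesoderm and 54.5% in alpha-amanitin endoderm. Of the morpholino-only peaks, 222, or 29.6% (26.4 to 33.0%), were in no other list, against 22 of the 442 shared peaks, or 4.98%, in no list beyond the 2 of endoderm.

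Most morpholino-only peaks kept a score above the listing limit when they were scaled to the background of the untreated library. With pileup and background scaled down to the untreated background, 606 of the 750 still scored at least 9, or 80.8% (77.8 to 83.6%), and 388 of the 442 shared peaks did, or 87.8%. All these peaks had passed the calling in the morpholino library, so their scaled scores cannot show whether the untreated library would have listed them. The median fold of the morpholino-only peaks was 6.06, close to the 5.88 of the shared morpholino peaks. They were narrower, with a median of 277 bp against 341 bp.

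The 8 strongest morpholino-only peaks on the 10 chromosomes were seen again mainly in the replicated lists, which are the longest of the 9 with 15925 peaks in mesoderm and 13130 in ectoderm. On scaffolds, morpholino-only peaks reached a higher −log10 q, 93.5, than the 66.7 of the strongest on a chromosome. That peak, on chromosome 9 at 26455262 to 26455572, was 20.5-fold enriched with a pileup of 67 reads at the lowest background of its list, and was otherwise only in replicated mesoderm. The second, on chromosome 5 at 38567302 to 38567636, was 16.5-fold enriched and in all 7 other lists, so that untreated endoderm alone lacked it. The fourth, on chromosome 5 at 62563492 to 62563991 (11.3-fold), was in 6 other lists.

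The others lay on chromosome 7 at 68376272 to 68376535 (13.3-fold) and 58235445 to 58236177 (10.6-fold), chromosome 2 at 101565832 to 101566170 (10.7-fold), chromosome 1 at 177879027 to 177879730 (11.5-fold) and chromosome 4 at 36960909 to 36961224 (8.56-fold). Each of these was in 1 or both replicated lists and in no list of the knockdown experiment but its own. Of all 8, each replicated list held 6, alpha-amanitin endoderm 2 and untreated mesoderm 2. Over all 750 morpholino-only peaks, replicated mesoderm held 54.3%, replicated ectoderm 46.7%, alpha-amanitin endoderm 19.2% and untreated mesoderm 43.9%. Every one of the 8 had thus been marked in at least 1 other library set. Their lowest scaled score at the untreated background was 21.3, and a high value follows from choosing the strongest peaks.

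Peaks on unplaced scaffolds were more frequent in the morpholino list than in any other. They made up 175 of its 1192 peaks, or 14.7%, against 3.98% in untreated endoderm and 5.82 to 7.89% in the other 7 lists. Among the 1192 strongest peaks of each other list the share was 5.20 to 10.9%. Of the morpholino-only peaks 129 were on scaffolds, or 17.2%, and 87 of these were in another list. The scaffold named scaffold_94 carried 24 morpholino peaks, of which 1 was in untreated endoderm and 19 in no other list. Untreated scaffold peaks were also found more often, 48 of 149 or 32.2% (24.8 to 40.4%), than the 10.9% of peaks on the 10 chromosomes, where the share ran from 8.61% on chromosome 6 to 13.4% on chromosome 7. On the 10 chromosomes alone, 38.9% of morpholino peaks were in the untreated list, and the median fold ratio of the pairs was 0.774.

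With every list cut to its 1192 strongest peaks, the morpholino list was nearest to alpha-amanitin endoderm. It shared 308 peaks with that list, or 25.8% (23.4 to 28.4%), 23.4% with untreated mesoderm, 22.1% with replicated mesoderm and 21.4% with alpha-amanitin mesoderm. With untreated endoderm it shared 19.6% (17.4 to 22.0%). The ectoderm lists were lowest, at 16.9% untreated, 15.8% after alpha-amanitin and 14.3% in the replicated list. The intervals of neighbours in this order overlap, and that of alpha-amanitin endoderm lies above that of untreated endoderm. Both shares are of the same 1192 morpholino peaks and cover counting error only, so this separation is a description and no test.

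Both endoderm lists of the comparison stood apart from the rest. The untreated endoderm list was also nearest to alpha-amanitin endoderm at equal length, with 29.9% (27.4 to 32.6%), and it shared 24.0% with untreated mesoderm and 19.3% with the morpholino list. Of the 1192 strongest peaks, 50.2% of the morpholino list and 51.6% of the untreated endoderm list were among the strongest of no other list, against 14.9 to 31.8% in the other 7. Averaged over both directions, the 6 pairs with the morpholino list overlapped by 15.5 to 25.5% (median 20.2%), and the 15 other pairs of the experiment by 14.1 to 45.6% (median 35.1%). The low overlap of morpholino and untreated endoderm thus stood among lists that each overlapped others less, and repeat libraries of either condition were not analysed here.

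**Figure D4:**
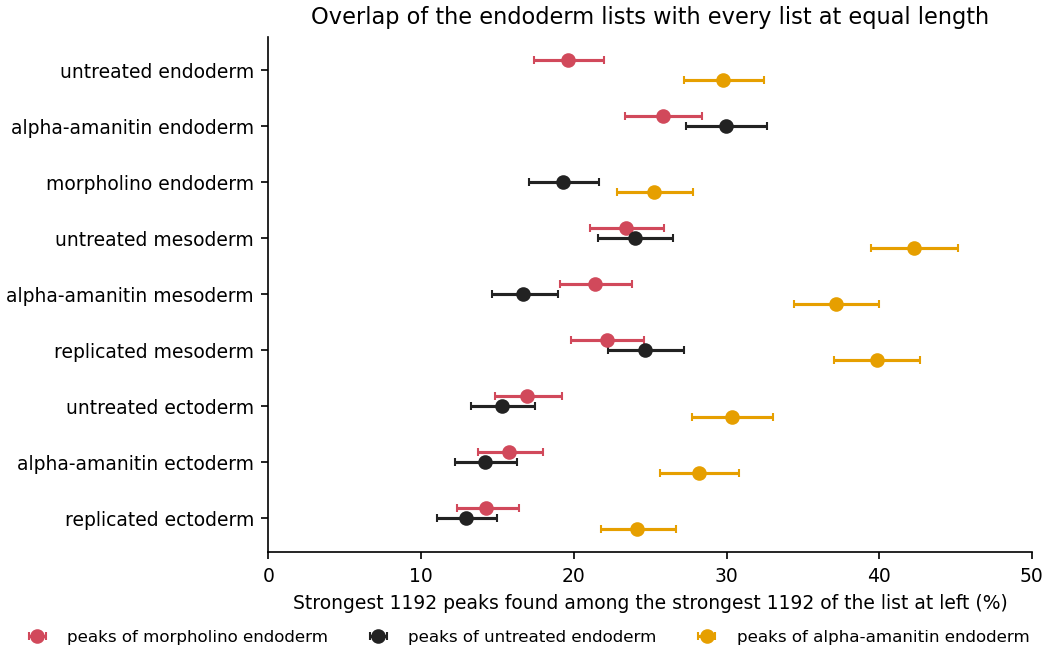
Share of the 1192 strongest peaks of each endoderm list (colours) found among the 1192 strongest peaks of each list named at left (horizontal axis, %), with 95% Clopper-Pearson intervals. Morpholino endoderm runs from 14.3 to 25.8% and untreated endoderm from 12.9 to 29.9%, and alpha-amanitin endoderm lies above both in every mesoderm and ectoderm list.

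Whether an untreated peak stood alone or among neighbours made little difference to whether it was found. Untreated endoderm peaks with gaps of at most 10 kb formed 2050 clusters, a grouping added after the data were seen, and 334 of these held a peak found after morpholinos. The share of peaks found was 11.1% for peaks standing alone, 11.6% in clusters of 2, 12.1% in clusters of 5 to 9 and 16.4% (10.6 to 23.8%) in the 10 clusters with 10 or more peaks. Of these 10 large clusters, 8 had at least 1 peak found, and the interval for their peaks includes the 11.8% found overall.

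The largest cluster, at 160309616 to 160339134 on chromosome 1, had 22 untreated endoderm peaks, of which 21 were also in untreated mesoderm, 17 in alpha-amanitin endoderm and 3 in the morpholino list, which had 6 peaks there. The cluster on chromosome 7 at 18646207 to 18673607 had 15 untreated endoderm peaks, of which 13 were in untreated mesoderm, 10 in untreated ectoderm and 11 in alpha-amanitin endoderm, and the morpholino list had no peak there. The other of the 10 large clusters with none found was on chromosome 3 at 20869793 to 20887606, with 10 untreated peaks of which 4 were in untreated mesoderm. At the other end, the clusters on chromosome 3 at 36873408 to 36914639 and chromosome 4 at 90645637 to 90680819 each had 5 peaks found, of 16 and of 10. The chromosome 7 cluster, the larger of the 2 large clusters with none found, was marked in every other list. Its lack of morpholino peaks is what set it apart here and is no further result. The missing peak named above at 18608862 to 18609375 lay on the same chromosome outside this cluster.

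**Figure D5:**
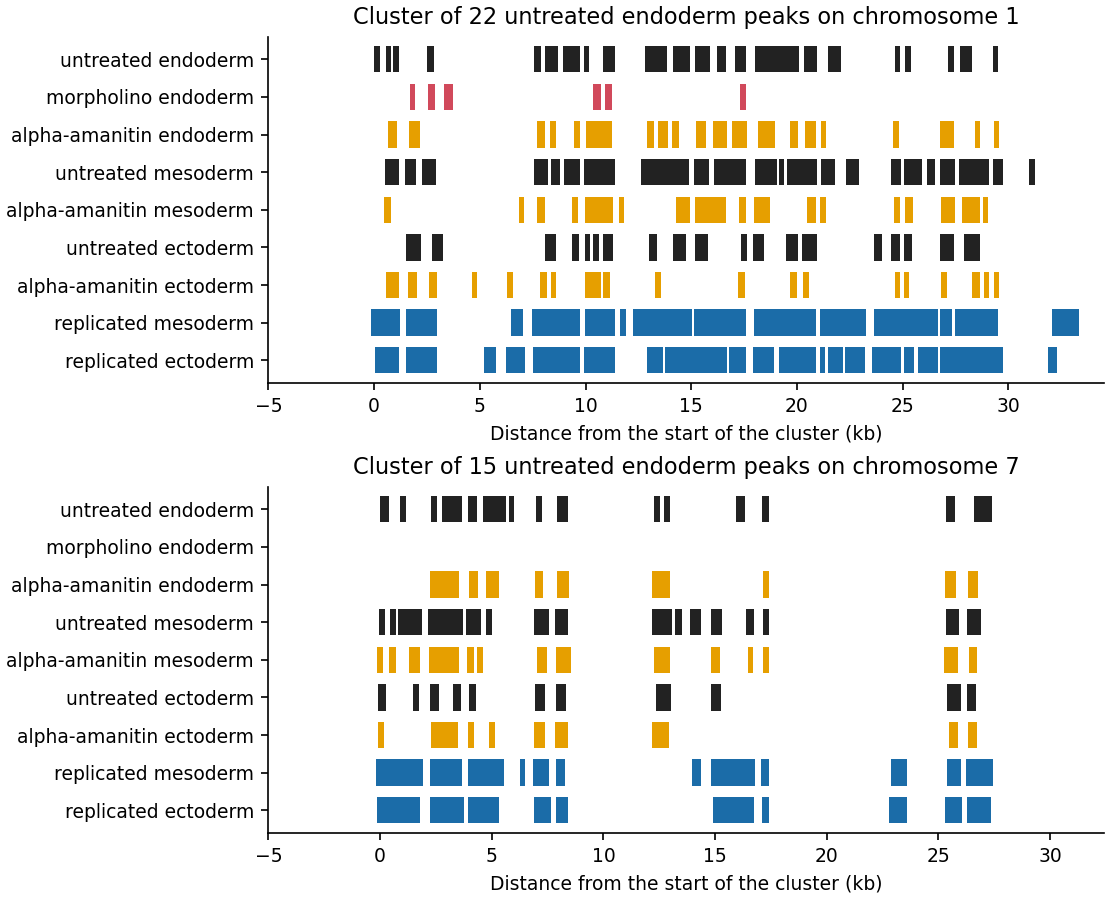
Peaks of all 9 lists, drawn to scale as bars along the distance from the cluster start (horizontal axis, kb), over the cluster of 22 untreated endoderm peaks on chromosome 1 (upper panel) and the cluster of 15 on chromosome 7 (lower panel). The morpholino row has 6 peaks in the upper panel and none in the lower, where every other row has peaks. The lower cluster is the larger of the 2 large clusters with none found. The cluster of 16 on chromosome 3, with 5 found, is not drawn.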

How the data were processed

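Chromatin from the 11 H3K4me1 samples was represented by 9 peak lists as deposited by the authors: 1 for each of the 7 libraries of the knockdown experiment, and 1 for each of 2 germ layers of the replicated experiment. Bowtie2 2.2.7, a read aligner, is named in the submitters' processing notes, per the labels. The genome build, the peak caller, its settings and the use of input DNA were not given in the sources used here. Values deposited by the authors for each peak are its fold (a ratio of signal to background), its −log10 p, its −log10 q, used here as the strength score, and the distance of the summit from the peak start in bp. These values were used as the authors' own, to describe and rank peaks within a list. Read totals are not in the lists, so depth is known only through the recovered background.

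The 2 endoderm lists were intersected at a minimum overlap of 1 bp, and each list was looked up in the others whole and cut to its 1192 strongest peaks by −log10 q. Untreated peaks were grouped by overlap with the untreated mesoderm and ectoderm lists of the same experiment and into 5 bins of strength and of width. The pileup was the whole number k, and the background the value b, for which (k + 1)/(b + 1) equalled the fold and a Poisson tail above k gave the −log10 p. The named regions were the 8 peaks with the highest −log10 q on the 10 chromosomes in each of 3 kinds, found untreated, missing untreated and morpholino-only, with the pairs nearest to the 1 bp rule. Clusters were named from the 10 with 10 or more peaks, a choice made after the data were seen. No test was made, since each condition had 1 library. The members, lists and classes were chosen with earlier results of these data known. The overlap and recovery steps were tested on simulated data, with Python 3.11.15, numpy 2.4.6, pandas 2.3.3, scipy 1.17.1 and matplotlib 3.10.9. The single-embryo expression table was not used.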

Additional observations from a re-analysis of the deposited data

How the results depend on the processing

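Of 60 recomputed values over 12 results, 20 moved beyond the counting interval of the reported value. All results but the median fold ratio are shares, which have no direction that could reverse. The median fold ratio stayed below 1. The share of untreated peaks found, 11.8%, was 15.7% when peaks within 500 bp counted as shared, 9.92% when the summit had to lie in a peak of the other list, 10.2% with the upper 50% of each list and 19.3% with lists of equal length. The share of morpholino peaks found, 37.1%, was 44.8, 32.3, 32.2 and 19.6% under the same settings. Of the peaks in all 3 layers, 31.9% were found within 500 bp and 40.0% at equal length, and of the peaks in neither untreated list 4.50% were found at equal length. The ratio of these classes was between 7.54 and 9.06 under each setting, beside 8.09 as reported. Of the morpholino-only peaks, 39.9% were in untreated mesoderm with the upper 50% of each list and 10.0% at equal length, where fewer peaks are searched. The median fold ratio was 0.727 without the added 1, an alternative chosen after the data were seen. Among morpholino peaks that scored at least 9 at the untreated background, also chosen then, 39.0% were in untreated endoderm. No paired analysis was possible because each endoderm condition has 1 library, and no replicate could be left out. The main limits are the single libraries, the absence of a control-morpholino sample from those analysed here, and a fragment length that no source used here states.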

Other observations

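Some peaks of either endoderm list lay within 100 kb of a peak of the other without overlapping it. Of the 3299 missing untreated peaks, 453 lay within 5 kb of a morpholino peak, or 13.7% (12.6 to 15.0%), and 1188 within 100 kb, or 36.0%. Of the 750 morpholino-only peaks, 221 lay within 5 kb of an untreated endoderm peak, or 29.5% (26.2 to 32.9%), and 436 within 100 kb, or 58.1%. The lists differ in length, so the shares of the 2 directions are not comparable with each other. No such share was computed for other lists or for random positions, so these values do not show that the 2 lists lie especially close.

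The morpholino peaks also differed among themselves by germ layer. Of the 378 that overlapped both untreated mesoderm and ectoderm, 226 were in untreated endoderm, or 59.8% (54.7 to 64.8%). Of the 328 that overlapped mesoderm and not ectoderm, 151 were, or 46.0% (40.5 to 51.6%), and of the 475 in neither, 64 were, or 13.5% (10.5 to 16.9%). By width, the share in untreated endoderm was 23.0% in the narrowest of 5 bins of morpholino peaks and 54.0% in the widest. Of the 50 strongest morpholino peaks, 32 were in untreated endoderm, or 64.0% (49.2 to 77.1%).

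A larger part of the morpholino list stood at the lowest background of its library than in any other list of the experiment. In the morpholino list 182 of 1192 peaks were at that value, or 15.3%, against 4.04% in untreated endoderm and 3.62 to 4.47% in the other lists of the experiment. The 222 morpholino peaks in no other list had a median fold of 6.16 and a median width of 264 bp.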
